A study of Mus musculus with 6 samples.

Results

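The genes described here are 7 genes linked to endothelial tip cells and vessel sprouting, Esm1, Apln, Aplnr, Cd34, Pdgfb, Kcne3 and Mcam, chosen by name from the 24421 genes of the count table. All 7 passed the filter on low counts, as did 12753 genes in all. RNA came from cultured endothelial cells of mouse brain, which form the inner lining of vessels, after fluorescence-activated cell sorting. One group of 3 libraries carries the genotype label Fli-1 knockout (KO) and the other group of 3 the label WT, both taken 6 days into co-culture with a vascular niche after the deletion was induced. The labels give the same 4-OHT (4-hydroxytamoxifen) treatment text for all 6 samples. Neither a recombinase, a strain nor an animal age is named. Whether replicates were independent cultures or animals is not stated, and p-values therefore measure only the spread between these libraries.

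When a vessel sprouts, a tip cell leads and migrates along growth factor cues, while stalk cells behind it divide and form the tube. Tip cells express VEGF receptors and Notch ligands, and secrete factors that act on their neighbours: apelin, the product of Apln, acts on the receptor encoded by Aplnr, and PDGF-B, the product of Pdgfb, recruits pericytes, the mural cells that wrap capillaries. Esm1 encodes endocan, a secreted proteoglycan induced by VEGF. Cd34 and Mcam encode surface glycoproteins, and Kcne3 an accessory subunit of potassium channels. Fli1 encodes an ETS family transcription factor of endothelial and blood cells.

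Library totals ranged from 17550185 to 21385951 counts. The targeted gene went against the labels: Fli1 was at 76.8, 111 and 77.4 CPM (read counts relative to the scaled size of each library) in the libraries labelled KO and at 45.3, 59.6 and 45.8 CPM in those labelled WT. With the replicate number as a block it was higher by 0.81 ± 0.051 (SE) on the log2 scale (edgeR, adjusted p = 1.25e-15, or 0.878 without the block). Without the block it passed by DESeq2 (adjusted p = 0.0068) but not by limma-voom (adjusted p = 0.934). The deleted part of the gene is not named, so these counts do not check the deletion, and every direction below is that of the labels. Endothelial markers were abundant: the 10 listed summed to 13110 to 14720 CPM in libraries labelled KO and 12770 to 13730 CPM in libraries labelled WT. Of 8 brain endothelial markers, 6 passed the filter. The 3 most abundant were Slc2a1, Slc7a5 and Abcg2. They averaged 513, 174 and 149 CPM in libraries labelled KO and 514, 144 and 126 CPM in those labelled WT. With the block Slc7a5 and Abcg2 rose by 0.28 and 0.24 on the log2 scale (edgeR, adjusted p = 7.39e-06 and 0.000154). They were the 2 of the 6 tested that rose, and 0 fell. Of the 10 endothelial markers 2 rose and 0 fell, where 4.81% of all tested genes rose and 4.01% fell. None of these markers passed without the block (edgeR). Mfsd2a, a lipid transporter gene of the blood-brain barrier, had 23 reads in all libraries labelled KO and 14 in those labelled WT. Of the 10 blood cell markers none passed the filter, and 5 had no read (Spi1, Tyrobp, Cd3e, Hbb-bs and Mpo). Fibroblast and mural markers were present and are given with the results below.

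None of the 7 genes passed the test between the groups (edgeR), in either direction, where 0.00784% of all tested genes passed, nor with the replicate number as a block, where 8.81% passed. The libraries labelled KO and WT overlapped for each of them, while 10.2% of tested genes had groups that did not overlap, and the fitted group differences were at most 0.10 on the log2 scale. By replicate number, 6 of the 7 genes differed between libraries numbered 1, 2 and 3, as did 34.1% of all tested genes, and for these 6 both libraries numbered 2 lay on the same side of the other libraries of their group. Apln was the most abundant of the 7 and its receptor gene Aplnr the least.

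**Figure D1:**
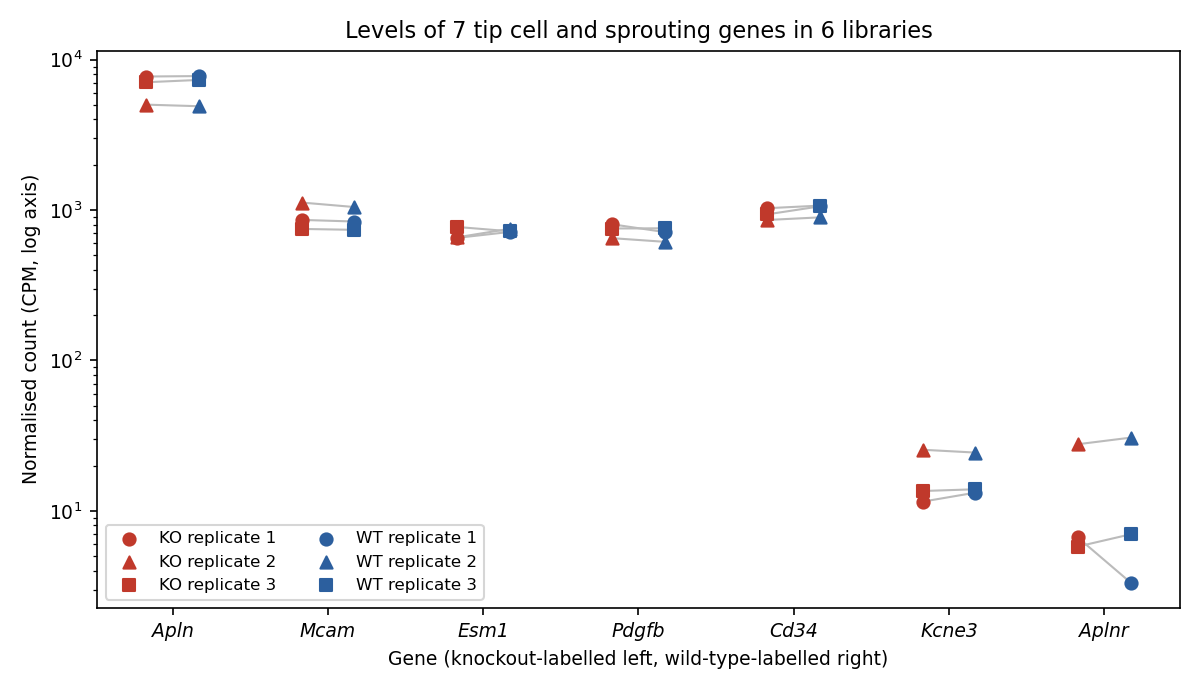
Normalised counts (CPM, log axis) of the 7 genes in each library, with libraries labelled KO to the left and those labelled WT to the right, symbols for the replicate number and grey lines joining libraries with the same number. Apln lies between 4900 and 7776 CPM and Aplnr between 3.34 and 30.7 CPM; for Aplnr and Kcne3 the triangles of replicate 2 lie above the other libraries in both groups.

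Levels per kilobase of exon, which allow genes to be compared, spanned a wide range. Apln averaged 2098 ± 448 CPM per kb in libraries labelled KO and 2118 ± 492 CPM per kb in libraries labelled WT (SD, n = 3 each), and ranked 3 among the tested genes matched to the annotation. It took 0.505% to 0.759% of all counts in libraries labelled KO and 0.501% to 0.780% in libraries labelled WT. Apelin transcripts were thus among the most abundant of these cells. Esm1 averaged 331 ± 32.1 CPM per kb in libraries labelled KO and 348 ± 8.65 CPM per kb in libraries labelled WT (rank 58). Mcam averaged 272 ± 57.2 CPM per kb in libraries labelled KO and 261 ± 47.0 CPM per kb in libraries labelled WT (rank 88). The ranges of Esm1 and Mcam overlapped, and Mcam was above Esm1 in library 2 labelled KO, at 335 against 314 CPM per kb.

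Pdgfb averaged 177 ± 18.9 CPM per kb in libraries labelled KO and 167 ± 17.5 CPM per kb in libraries labelled WT (rank 168). Cd34 averaged 129 ± 11.6 CPM per kb in libraries labelled KO and 138 ± 13.5 CPM per kb in libraries labelled WT (rank 246). Cd34 lay below Pdgfb in each of the 6 libraries, on the summed length of all annotated exons. Kcne3 averaged 9.48 ± 4.25 CPM per kb in libraries labelled KO and 9.66 ± 3.53 CPM per kb in libraries labelled WT (rank 4658). Aplnr averaged 3.62 ± 3.36 CPM per kb in libraries labelled KO and 3.70 ± 4.01 CPM per kb in libraries labelled WT (rank 7664). The channel subunit and the apelin receptor were thus the low members. Their ranges overlapped, while Kcne3 was above Aplnr in each of the 6 libraries.

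The promoters of the 3 members with the highest level per kilobase are shown because FLI1, like other ETS factors, recognises a GGAA core. Sequences run from 250 bases before to 50 bases after the annotated start (RefSeq, GRCm38.p6), 5′ to 3′ on the gene's strand, with GGAA, or TTCC where the core lies on the other strand, in capitals.
Apln promoter, chrX:48034804-48035103, minus strand: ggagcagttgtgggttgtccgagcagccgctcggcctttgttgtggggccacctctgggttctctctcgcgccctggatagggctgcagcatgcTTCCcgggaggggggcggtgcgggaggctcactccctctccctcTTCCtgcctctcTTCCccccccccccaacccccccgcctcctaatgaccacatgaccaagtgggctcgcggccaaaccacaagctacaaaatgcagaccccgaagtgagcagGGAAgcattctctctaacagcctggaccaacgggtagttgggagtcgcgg
Esm1 promoter, chr13:113209409-113209708, plus strand: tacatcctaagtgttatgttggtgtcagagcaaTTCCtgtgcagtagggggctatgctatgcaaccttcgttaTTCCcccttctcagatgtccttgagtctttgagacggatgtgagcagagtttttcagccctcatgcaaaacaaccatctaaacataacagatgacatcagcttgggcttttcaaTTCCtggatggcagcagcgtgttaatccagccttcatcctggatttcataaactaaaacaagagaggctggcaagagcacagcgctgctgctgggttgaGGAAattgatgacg
Mcam promoter, chr9:44134408-44134707, plus strand: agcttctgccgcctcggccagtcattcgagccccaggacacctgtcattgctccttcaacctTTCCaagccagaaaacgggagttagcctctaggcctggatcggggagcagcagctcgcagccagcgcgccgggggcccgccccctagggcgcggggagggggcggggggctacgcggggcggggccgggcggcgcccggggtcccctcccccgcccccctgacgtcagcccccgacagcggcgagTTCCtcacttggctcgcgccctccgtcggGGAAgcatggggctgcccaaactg
The core matched at 4, 4 and 3 places in the promoters of Apln, Esm1 and Mcam, counted on both strands. The median over 32851 promoters of the same length was 3 matches, and 96.0% held at least 1. The longer motif CCGGAA, which contains the core, had no match in any of the 6 promoter windows listed for 5 of the members, against 14.9% of all promoters that hold it. A match of letters is not a binding site, and binding was not measured here.

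The apelin pair was examined first. Apln (ENSMUSG00000037010, GRCm38 chromosome X, 48025146 to 48034853, minus strand) was at 7724, 5021 and 7077 CPM in libraries 1, 2 and 3 labelled KO and at 7776, 4900 and 7331 CPM in libraries 1, 2 and 3 labelled WT. The groups overlapped, and in each of them library 2 was the lowest. The fold change was 0.991, with a 95% interval of 0.678 to 1.45 (edgeR quasi-likelihood test, adjusted p = 0.996). With the replicate number as a block the interval narrowed to 0.939 to 1.05 (edgeR, adjusted p = 0.937).

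Aplnr (ENSMUSG00000044338, chromosome 2, 85136225 to 85139923, plus strand), which encodes the G protein-coupled receptor for apelin, was low and uneven. It was at 6.66, 27.7 and 5.79 CPM in libraries 1, 2 and 3 labelled KO and at 3.34, 30.7 and 6.99 CPM in libraries 1, 2 and 3 labelled WT. Library 2 was far above the other libraries of its group in both groups, and the groups overlapped. These levels rest on 70 to 646 reads per library; the exact Poisson intervals, which cover counting error only, were 25.4 to 30.2 CPM in KO library 2 and 4.71 to 7.05 CPM in KO library 3. The group comparison left a fold change between 0.146 and 6.56 possible (edgeR, 95% interval, adjusted p = 0.996), and with the block between 0.723 and 1.496 (edgeR, adjusted p = 0.925). The level was higher in the KO-labelled library of pair 1 by 0.99 on the log2 scale and lower in those of pairs 2 and 3, at -0.15 and -0.27. The ratio of Apln to Aplnr per kilobase was 1362, 213 and 1435 in libraries 1, 2 and 3 labelled KO and 2734, 188 and 1232 in those labelled WT.

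Other genes of apelin signalling came from a list of 14 partners. Apela, which encodes a second ligand of the receptor, had 1 read in libraries labelled KO and 1 in those labelled WT. Gnai2, an inhibitory G protein subunit through which the receptor signals, was the listed gene of this pathway that passed with the block: it rose by 0.13 ± 0.042 (SE) on the log2 scale (edgeR, adjusted p = 0.0378), to 1593 ± 104 CPM in libraries labelled KO against 1454 ± 107 CPM in those labelled WT (SD, n = 3 each). It did not pass without pair 2 (edgeR, adjusted p = 0.411) or by DESeq2 with the block (adjusted p = 0.0913). Nor did it pass in blocked edgeR without pair 1 or with scaling by library size alone. Its relatives Gnai1 and Gnai3 and the arrestin gene Arrb1, whose product ends receptor signalling, had log2 fold changes of -0.04, -0.05 and 0.02 with the block and did not pass.

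Pdgfb (ENSMUSG00000000489, chromosome 15, 79995874 to 80014977, minus strand) was at 804, 650 and 754 CPM in libraries 1, 2 and 3 labelled KO and at 714, 615 and 757 CPM in libraries 1, 2 and 3 labelled WT. Library 2 was again the lowest of each group, and the groups overlapped. The fold change was 1.06, with intervals of 0.885 to 1.27 in the group comparison and 0.9998 to 1.12 with the block (edgeR, adjusted p = 0.996 and 0.242). Pdgfrb, the receptor for PDGF-B on mural cells, fell by 0.44 ± 0.11 (SE) on the log2 scale with the block (edgeR, adjusted p = 0.0209). It was at 25.2 ± 24.8 CPM in libraries labelled KO and 35.8 ± 39.5 CPM in those labelled WT (SD, n = 3 each), with within-pair values of -0.59, -0.59 and 0.15, so pair 3 went the other way. It did not pass without pair 2 (edgeR, adjusted p = 0.337) or by DESeq2 with the block (adjusted p = 0.785). Levels of mural markers stand beside it: the 13 listed summed to 1447, 1887 and 1897 CPM in libraries 1, 2 and 3 labelled KO and 1428, 2258 and 1598 CPM in those labelled WT. Tagln and Acta2 made up most of each sum. Acta2 was at 302, 715 and 408 CPM in libraries 1, 2 and 3 labelled KO and at 320, 959 and 330 CPM in those labelled WT. Pdgfrb itself was at 10.5, 53.8 and 11.4 CPM in libraries 1, 2 and 3 labelled KO and at 15.8, 81.3 and 10.2 CPM in those labelled WT. Of the 11 mural markers tested, 3 fell with the block, Pdgfrb among them, and 0 rose, where 4.01% of all tested genes fell and 4.81% rose. The medians of the 11 within pairs 1, 2 and 3 were -0.539, -0.429 and 0.155 on the log2 scale. None of the 13 was at 0 reads in all libraries. Their part in the Pdgfrb difference was not tested. In bulk RNA, fewer cells of a type and less RNA per cell cannot be told apart. The other PDGF ligand genes did not pass with all 3 pairs in the test. Pdgfa was at 21.97 CPM in libraries labelled KO and 25.5 CPM in those labelled WT. With the block Pdgfa had a log2 fold change of -0.19, Pdgfc of -0.09 and Pdgfd of 0.12. Without pair 1, Pdgfa passed as lower, at -0.30 (blocked edgeR, adjusted p = 0.00639, where 8.8% of all genes passed).

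An annotated microRNA gene, Mir7213, lies on the same strand inside Pdgfb, in the intron between exons that end at 79997704 and start at 80000329. It was chosen after its values were seen, because it passed the test with the block. The annotated hairpin (RefSeq, GRCm38.p6, 57 bases) is shown for its place within the gene.
Mir7213 hairpin, chr15:79998970-79999026, minus strand: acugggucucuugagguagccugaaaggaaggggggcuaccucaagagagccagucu
Its count was 25, 17 and 17 reads in libraries 1, 2 and 3 labelled KO and 69, 46 and 46 reads in those labelled WT. The groups did not overlap, which was the case for 10.2% of tested genes, 5.25% with the libraries labelled KO above and 4.96% with those labelled WT above. Mir7213 fell by 1.34 ± 0.25 (SE) on the log2 scale with the block (edgeR, adjusted p = 0.000121) and did not pass in the group comparison (-1.34 ± 0.27 SE, adjusted p = 0.877). Within the pairs the values were -1.45, -1.24 and -1.23, and leaving out any pair kept it past the threshold in the blocked edgeR test, at -1.38 to -1.26. The libraries were made from polyadenylated RNA, so these reads are not a measure of the mature microRNA.

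Esm1 (ENSMUSG00000042379, chromosome 13, 113209659 to 113218098, plus strand) varied least. It was at 653, 658 and 772 CPM in libraries 1, 2 and 3 labelled KO and at 715, 750 and 723 CPM in libraries 1, 2 and 3 labelled WT. The highest level over the lowest was 1.18, and the groups overlapped. Its fold change was 0.952, with an interval of 0.832 to 1.09 in the group comparison (edgeR, adjusted p = 0.996) and 0.891 to 1.01 with the block (edgeR, adjusted p = 0.357). Pairs 1 and 2 had values of -0.13 and -0.19 on the log2 scale and pair 3 a value of 0.09. Without pair 3, Esm1 passed as lower, at -0.16 (blocked edgeR, adjusted p = 0.0198, where 8.97% of all genes passed). Gzmk, a protease gene on the opposite strand that overlaps Esm1, had 1 read in all.

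Cd34 (ENSMUSG00000016494, chromosome 1, 194938819 to 194961279, plus strand), a sialomucin of endothelial and blood progenitor cells that marks tip cells in culture, was at 1029, 859 and 936 CPM in libraries 1, 2 and 3 labelled KO and at 1070, 894 and 1059 CPM in libraries 1, 2 and 3 labelled WT. Each library labelled KO was below its same-numbered partner, by 0.06, 0.06 and 0.18 on the log2 scale, while the groups overlapped. The fold change was 0.934 with an interval of 0.792 to 1.10 (edgeR, adjusted p = 0.996). With the block the interval was 0.883 to 0.990, with an unadjusted p of 0.0214 and an adjusted p of 0.144 in edgeR, and an unadjusted p of 0.05 or less was reached by 20.8% of all genes there. With scaling by library size alone Cd34 passed as lower with the block, at -0.12 (edgeR, adjusted p = 0.0446, where 9.45% of all genes passed). Podxl, which encodes the related sialomucin podocalyxin, had a log2 fold change of 0.09 and did not pass. Cd34 is also expressed by fibroblasts. Fibroblast markers summed to 140, 1016 and 465 CPM in libraries 1, 2 and 3 labelled KO and 179, 1404 and 491 CPM in those labelled WT, highest in the libraries numbered 2, where Cd34 was lowest in each group. Their part in the level of Cd34 was not tested.

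Gm16897 is an antisense gene that overlaps Cd34, and was also chosen after its values were seen. It had 140, 96 and 110 reads in libraries 1, 2 and 3 labelled KO and 210, 156 and 147 reads in those labelled WT. It was lower in each pair, the groups did not overlap, and it fell by 0.46 ± 0.12 (SE) on the log2 scale with the block (edgeR, adjusted p = 0.0101). It did not pass in the group comparison (edgeR, adjusted p = 0.996), nor in the blocked test without pair 1 or without pair 2 (adjusted p = 0.125 and 0.0860). The strand setting of the counting is not given in the sources used here, so reads from Cd34 and Gm16897 cannot be told apart where both have exons.

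Mcam (ENSMUSG00000032135, chromosome 9, 44134469 to 44142727, plus strand), which encodes the adhesion molecule CD146 of endothelial and mural cells, was at 860, 1122 and 749 CPM in libraries 1, 2 and 3 labelled KO and at 839, 1047 and 739 CPM in libraries 1, 2 and 3 labelled WT. Library 2 was the highest and library 3 the lowest of each group. Each library labelled KO was above its partner, by 0.04, 0.10 and 0.02 on the log2 scale, and the groups overlapped. The same sign in all 3 pairs, as for Cd34 and Mcam among the 7, was found for 40.7% of tested genes, 20.6% higher and 20.1% lower. The fold change of Mcam was 1.04, with intervals of 0.762 to 1.42 in the group comparison and 0.980 to 1.10 with the block (edgeR, adjusted p = 0.996 and 0.512). Among listed partners of CD146, Wnt5a, a secreted Wnt ligand, fell by 0.47 ± 0.096 (SE) with the block (edgeR, adjusted p = 0.000575), and Ezr, an adaptor between membrane and actin, rose by 0.28 ± 0.072 (SE, edgeR, adjusted p = 0.00780). Wnt5a was at 6.04, 24.0 and 6.66 CPM in libraries 1, 2 and 3 labelled KO and at 8.74, 35.0 and 7.85 CPM in those labelled WT. Like the summed fibroblast markers, Wnt5a was highest in library 2 of each group. So were the mural markers Pdgfrb, Cspg4 and Notch3, which fell with the block. Tagln, the most abundant mural marker, was instead lowest in library 2 of each group. Libraries 1, 2 and 3 held 1104, 982 and 1444 CPM of it under the label KO. Under the label WT they held 1048, 1014 and 1225 CPM. Of the 7 tested fibroblast markers, 2 fell and 1 rose with the block, where 4.01% of all tested genes fell and 4.81% rose. Cspg4, a pericyte proteoglycan gene, was at 8.33, 51.8 and 4.69 CPM in libraries 1, 2 and 3 labelled KO and at 14.8, 81.8 and 4.49 CPM in those labelled WT, and the part of these cells in the Wnt5a difference was not tested. Neither Wnt5a nor Ezr passed without pair 2 (edgeR, adjusted p = 0.152 and 0.137) or by DESeq2 with the block (adjusted p = 0.0853 and 0.222). Ezr also did not pass in blocked edgeR without pair 1.

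Kcne3 (ENSMUSG00000035165, chromosome 7, 100176502 to 100184869, plus strand) was at 11.5, 25.5 and 13.6 CPM in libraries 1, 2 and 3 labelled KO and at 13.2, 24.4 and 13.9 CPM in libraries 1, 2 and 3 labelled WT. Library 2 was the highest of each group, and the groups overlapped. The fold change was 0.980, with intervals of 0.499 to 1.92 in the group comparison and 0.860 to 1.09 with the block (edgeR, adjusted p = 0.996 and 0.835). Its listed relatives were near absent: Kcne1 had no read, and Kcne2 had 4 reads in libraries labelled KO and 2 in those labelled WT. Kcne4 had 8 reads in libraries labelled KO and 22 in those labelled WT, and Kcne1l had 2 reads in libraries labelled KO and 0 in those labelled WT. Of the channel genes whose products pair with KCNE3, Kcnq1 was at 30.8 CPM in libraries labelled KO and 28.9 CPM in those labelled WT, and did not pass.

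Across the table, the group comparison passed 0.00784% of tested genes (1 of 12753) and the blocked test 8.81%, with 4.81% higher and 4.01% lower (613 and 511 genes). Scaled by library size alone, the blocked test gave 471 higher and 734 lower. With 0 of 7 members passing in either, the median log2 fold change of the 7 was -0.03, against -0.004 over all tested genes. At an unadjusted p of 0.05 or less, 0 of the 7 were reached in the group comparison, where 4.79% of all genes were, and Cd34 was the 1 reached with the block. By DESeq2 and limma-voom, 0 of the 7 passed with or without the block; DESeq2 with the block passed 2.92% of all genes. Blocked edgeR tests without pair 1 and without pair 2, in which 0 of the 7 passed, reached 8.8% and 4.28% of all genes.

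**Figure D2:**
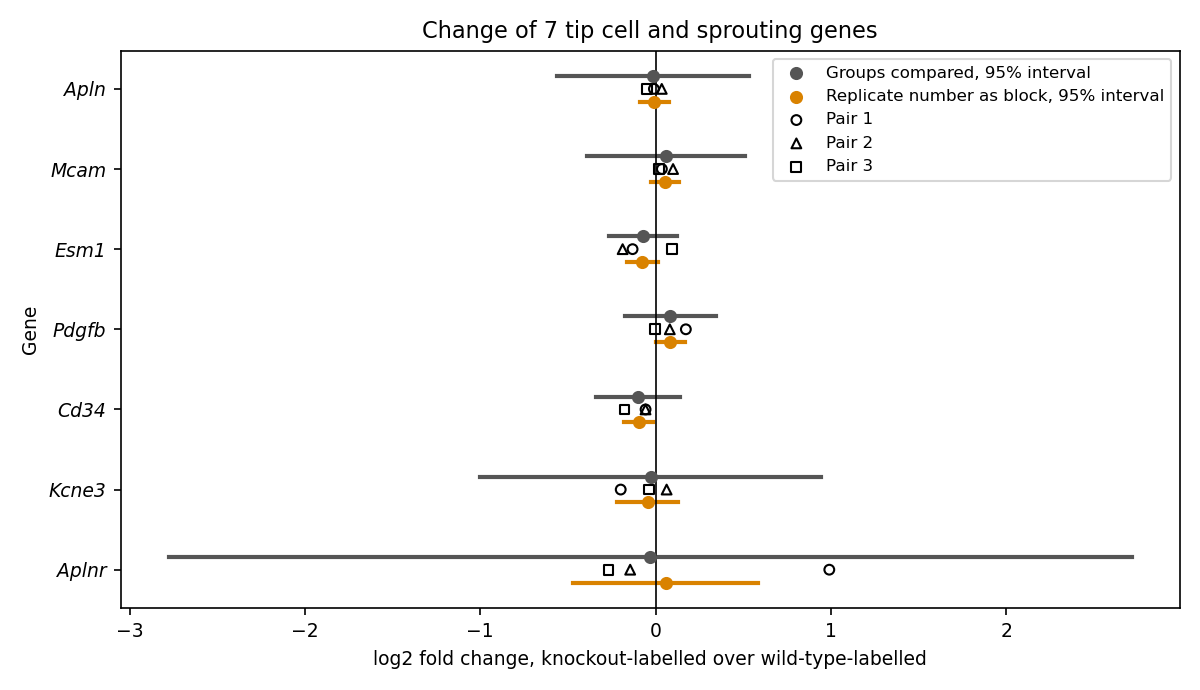
Log2 fold changes of the 7 genes (KO-labelled over WT-labelled) from the group comparison in grey and with the replicate number as a block in orange, with 95% intervals, and the values of the 3 same-numbered pairs as open symbols. Each grey interval includes 0; those of Aplnr and Kcne3 are the widest of the 7, and the orange interval of Cd34 lies just below 0.

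The replicate number was related to most of the 7 genes. In the edgeR test of the number itself, with the group as the other term, 6 of 7 passed, against 34.1% of all tested genes; the adjusted p was 4.85e-14 for Apln, 8.63e-12 for Mcam, 2.64e-11 for Kcne3, 3.43e-05 for Pdgfb, 0.00015 for Cd34 and 0.000619 for Aplnr, and 0.140 for Esm1. This test was chosen after the values were seen. The number took 99.6% of the sum of squares of log2 CPM for Apln, 98.2% for Kcne3, 98.1% for Mcam and 93.6% for Aplnr, and 36.0% for Esm1, against a median of 61.6% over all tested genes. Libraries numbered 2 were at 5.13 times the mean of the other 4 libraries for Aplnr, 1.91 times for Kcne3 and 1.36 times for Mcam, and at 0.663 times for Apln, 0.836 times for Pdgfb and 0.857 times for Cd34. Aplnr stood out: 1.32% of tested genes were at least as far apart between number 2 and the other libraries on the log2 scale, against 6.36% for Kcne3 and 10.9% for Apln. With the libraries numbered 2 left out, 1 of the 7 genes, Mcam, still differed between numbers 1 and 3 (edgeR, adjusted p = 0.0249), where 13.8% of all genes did. Without number 1 or number 3, 6 of the 7 differed, against 32.6% and 25.8% of all genes; with RLE scaling or library size alone the count was 6, against 34.5% and 34.9%.

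**Figure D3:**
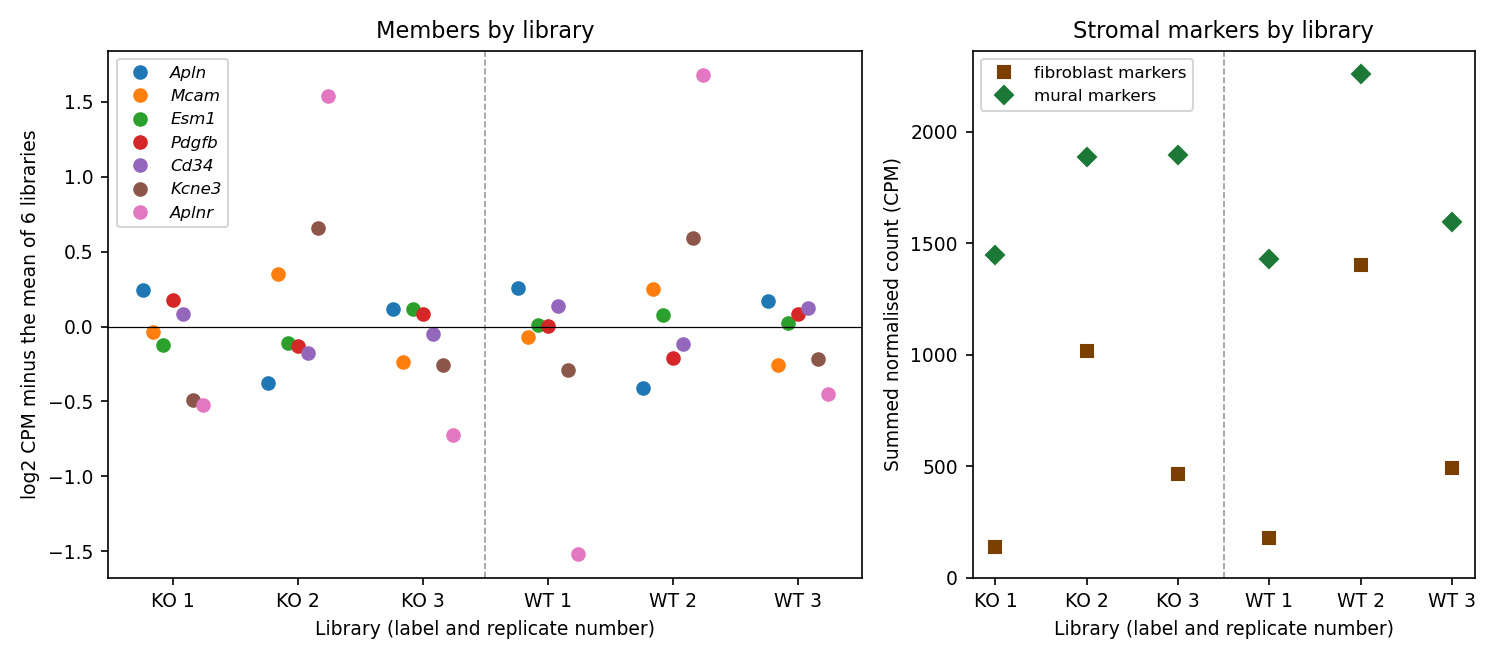
Left, log2 CPM of the 7 genes in each library minus the gene's mean over the 6 libraries; right, summed CPM of 10 fibroblast and 13 mural markers in the same libraries, those labelled KO first. Aplnr, Kcne3 and Mcam are above their means, and Apln below its mean, in both libraries numbered 2, which also hold the most fibroblast marker counts (1016 and 1404 CPM). Tagln and Acta2 make up most of the mural sums.

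The fibroblast markers that were most abundant were Col1a1, Col1a2 and Col3a1, and the most abundant mural markers were Tagln, Acta2 and Pdgfrb. No listed fibroblast marker was at 0 reads in all libraries, although Dpt had 1 read in libraries labelled KO and 0 in those labelled WT, and Lum 3 reads in each group. The part of these cells in the levels of Aplnr, Kcne3 and Mcam was not tested. Replicate numbers also differed for 32 of 44 tested genes of a wider tip cell list, 22 of 28 of a stalk cell list and 27 of 33 of a list of partners, against 34.1% of all tested genes.

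The genes whose log2 CPM was most like that of each member over the 6 libraries were sought among 8985 others of at least 10 CPM on average, by Pearson's r. For Apln they were Jag2, a Notch ligand gene, Rapgef2 and Ism1, at 0.996 to 0.998. For Pdgfb they were Adam15, a membrane protease gene, Npr2 and Rbm10, at 0.993 to 0.997. For Aplnr they were Colec12, a scavenger receptor gene, Laptm4a and Mex3a, at 0.994 to 0.995. For Kcne3 they were Ahrr, a repressor of the aryl hydrocarbon receptor, Pcdh17, a protocadherin gene also on the tip cell list, and Specc1l, at 0.994 to 0.997. Cd34 was nearest to Pxdc1, Rnf14 and Slc39a13, Mcam to Gtf2e2, Tmem2 and Cd200, and Esm1 to Gtf2b, Utp20 and Slc25a22, at 0.967 to 0.997 over these 3 members. The libraries share replicate numbers, and the number took 76.3% to 99.9% of the sum of squares of these genes other than the 3 nearest to Esm1, at 21.1% to 44.5%; r describes these 6 libraries only.

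A list of 44 other genes known from tip cells was set beside the members. All were tested; with the block 5 rose, 4 fell and 35 did not pass, where 4.81% of all tested genes rose and 4.01% fell, and the median log2 fold change of the group comparison was -0.0004 against -0.004 over all genes. In the group comparison 0 genes of this list, the stalk cell list or the partner list passed by edgeR, DESeq2 or limma-voom, and 3, 1 and 0 had an unadjusted p of 0.05 or less in edgeR. Unc5b, a netrin receptor gene of tip cells, rose by 0.19 ± 0.042 (SE) with the block, at 210 ± 17.97 CPM in libraries labelled KO and 184 ± 10.6 CPM in those labelled WT (SD, n = 3 each; edgeR, adjusted p = 0.00163). Efnb2, the ligand gene ephrin-B2, rose by 0.20 ± 0.043 (SE, edgeR, adjusted p = 0.00137). Lamb1, a laminin chain gene, and Rhoc, a small GTPase gene of cell migration, rose by 0.14 and 0.13, and Prcp, a serine protease gene, by 0.17.

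Among those that fell, Arhgap18 was at 91.8 ± 10.3 CPM in libraries labelled KO and 114 ± 17.6 CPM in those labelled WT (SD, n = 3 each) and fell by 0.30 ± 0.046 (SE) with the block (edgeR, adjusted p = 5.54e-06). Mmp15, a membrane matrix metalloproteinase gene, fell by 0.24, Hlx, a homeobox gene, by 0.19 and Trp53i11 by 0.15. Without pair 2, 2 of the list fell, Arhgap18 and Mmp15, and 0 rose, where 4.28% of all genes passed in either direction. DESeq2 with the block, which passed 2.92% of all genes, gave 3 higher (Unc5b, Lamb1 and Efnb2) and 2 lower (Arhgap18 and Trp53i11). Mmp15 did not pass by DESeq2 with the block (adjusted p = 0.163) or in blocked edgeR without pair 3 (adjusted p = 0.158), while Arhgap18 passed in each blocked test run. Scaling by library size alone gave 2 higher and 4 lower, and leaving out pair 1 gave 2 and 7. Among other tip cell genes on the list, Angpt2, Dll4 and Kdr did not pass with the block, unlike Unc5b and Efnb2. Angpt2, a Tie2 ligand gene, was at 4518 ± 448 CPM in libraries labelled KO and 4387 ± 386 CPM in those labelled WT (SD, n = 3 each). Dll4, the tip cell Notch ligand gene, was at 447 ± 82.8 CPM in libraries labelled KO and 437 ± 61.1 CPM in those labelled WT. Kdr, the main VEGF receptor gene, was at 774 ± 43.5 CPM in libraries labelled KO and 816 ± 33.8 CPM in those labelled WT. Vegfa, a VEGF ligand gene, had a log2 fold change of -0.29 ± 0.090 (SE) with the block and did not pass (edgeR, adjusted p = 0.0974). It passed as lower by limma-voom with the block (adjusted p = 0.00337). Blocked edgeR also passed it without pair 1 and without pair 3 (adjusted p = 0.0153 and 1.28e-09), but not without pair 2. Its within-pair values were -0.32, -0.52 and 0.03.

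Of 28 genes known from stalk or resting endothelium, all tested, 1 rose, 3 fell and 24 did not pass with the block, where 4.81% of all tested genes rose and 4.01% fell, with a median of 0.01 in the group comparison. Tek, the angiopoietin receptor gene, rose by 0.16, to 122 ± 22.05 CPM in libraries labelled KO against 109 ± 17.5 CPM in those labelled WT (edgeR, adjusted p = 0.0158). Hes1, a Notch target, fell by 0.33 ± 0.057 (SE, edgeR, adjusted p = 3.84e-05), at 38.7 ± 4.65 CPM in libraries labelled KO and 48.8 ± 6.49 CPM in those labelled WT. Robo4, a guidance receptor gene that steadies vessels, fell by 0.14, and Aqp1, a water channel gene, by 0.69. Without pair 2, 0 rose and 3 fell (Hes1, Aqp1 and the Notch target Heyl), while Robo4 and Tek did not pass (edgeR, adjusted p = 0.259 and 0.288); 4.28% of all genes passed there. Aqp1 did not pass without pair 1 (edgeR, adjusted p = 0.202). Robo4 also did not pass in blocked edgeR without pair 3, nor did Tek with scaling by library size alone. DESeq2 with the block, at 2.92% of all genes, gave 0 higher and 3 lower (Hes1, Robo4 and Aqp1).

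Of the 44 listed partners and relatives of the 7 genes, 33 passed the filter; 4 rose, 2 fell and 27 did not pass with the block, where 4.81% of all tested genes rose and 4.01% fell, with a median of 0.05 in the group comparison. Besides those given above, the matrix gene Fn1 rose by 0.18 ± 0.042 (SE), at 21982 ± 2708 CPM in libraries labelled KO and 19456 ± 3009 CPM in those labelled WT, and Met, the receptor gene for hepatocyte growth factor, which endocan binds, by 0.30 ± 0.066 (SE; edgeR, adjusted p = 0.00256 and 0.00172; SD, n = 3 each). The gene of that growth factor, Hgf, had 9 reads in libraries labelled KO and 25 in those labelled WT. Without pair 2, 1 of the list rose (Selp, which encodes P-selectin) and 0 fell, and Fn1 and Met did not pass (edgeR, adjusted p = 0.379 and 0.155), where 4.28% of all genes passed. DESeq2 with the block, at 2.92% of all genes, gave 1 higher, Fn1, and 0 lower.

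**Figure D4:**
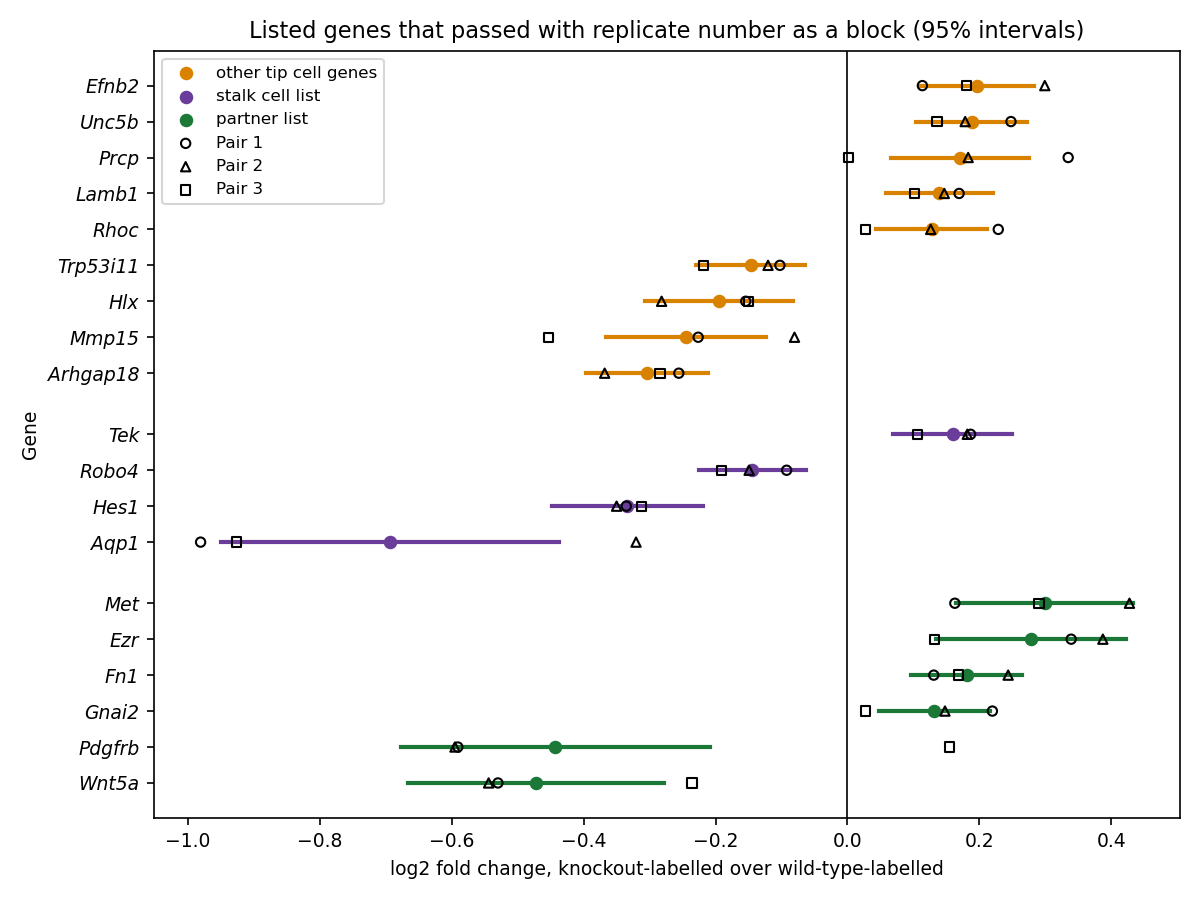
Log2 fold changes (KO-labelled over WT-labelled) with 95% intervals for the 19 listed genes that passed with the replicate number as a block, and the values of the same-numbered pairs as open symbols. Aqp1 has the lowest value, at -0.69, and Met the highest, at 0.30; Pdgfrb has pair 3 on the other side of 0 from pairs 1 and 2.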

How the data were processed

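Polyadenylated RNA was sequenced from 6 sorted samples, 3 per label. Per the labels' protocols, libraries came from a TruSeq kit without strand marks or from a stranded TruSeq kit; which sample had which is not stated. The deposited values are raw counts per gene, to which the authors applied no normalisation. Tools named in the submitters' processing notes, with no role, are STAR 2.6.1d, featureCounts, Subread 1.6.4, FastQC 0.11.8 and Trim Galore 0.6.4, and the named builds are GRCm38 and mm10. How strand and multi-mapping reads were handled, and on which annotation, is not given in the sources used here, which makes overlapping and antisense genes uncertain.

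Positions and exon lengths came from GENCODE M21 (GRCm38), in which 23384 of 24421 symbols were found (95.8%); exon length is the union of annotated exons. The tests ran in R 4.3.3 with edgeR 4.0.16 (filterByExpr, TMM factors of 0.983 to 1.02, robust quasi-likelihood F test), with Benjamini-Hochberg adjustment over 12753 genes; "passed" means a false discovery rate of 0.05. CPM uses TMM-scaled library sizes. Intervals are 95%, and Poisson intervals cover counting error only. Alternatives were DESeq2 1.42.0, limma-voom (limma 3.58.1), other scalings, no filter, and leaving out libraries or pairs. No exact test was used, since 3 against 3 libraries cannot go below a two-sided p of 0.1, nor 3 pairs below 0.25.

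Replicate numbers 1 to 3 occur in both groups. Same-numbered libraries deviated together from their group means (correlations of 0.760, 0.845 and 0.636), and on this ground, which the labels do not state, the numbers were taken to pair them. The designed test has no block. With the block the biological coefficient of variation was 0.0383, against 0.189 without it, on 2 against 4 residual degrees of freedom, so that blocked intervals lean on a spread pooled over genes. In 1 simulated set, the share of false calls with the block exceeded the nominal false discovery rate for edgeR but not for DESeq2. A single set does not measure a rate. Its counts were drawn from means fitted by replicate number, so it cannot test the pairing itself. Chi-square per degree of freedom between libraries was at least 4.62, so none was counted as a duplicate.

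The members and gene lists were chosen with earlier results of these data known. Named genes were the members, Fli1, listed genes that passed with the block (up to 6 per list and direction), the 3 most abundant markers of a list and the 3 genes most like each member. Mfsd2a, Cspg4, Notch3, Mir7213, Gm16897, Gzmk and the listed genes given as not passing or by reads were chosen after their values were seen. Listed astrocyte, neuron and oligodendrocyte, and lymphatic markers summed to at most 12.6, 2.43 and 23.3 CPM in any library, and blood markers to 1.48 CPM.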

Additional observations from a re-analysis of the deposited data

How the results depend on the processing

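The design names the replicate block as an alternative and does not list the others. Those on the replicate number term, Mir7213 and Gm16897 were added after values were seen. Of the 7 genes, 0 passed without the block under any of the scalings, filters, tests or left-out libraries tried. With the replicate block 2 passed once each: Esm1 as lower (-0.16) without pair 3 and Cd34 as lower (-0.12) with library size alone, so that 1 member was lower in each of these settings. Directions near 0 turned. Aplnr was at -0.03 in the group comparison and at 0.18 with limma-voom, 0.0565 with the replicate block, 0.18 with the block and DESeq2, 0.0302 with the block and library size alone and 0.0576 with the block and RLE scaling. Leaving out 1 library gave -0.20 to 0.15 for Apln, -1.13 to 1.37 for Aplnr, -0.00173 to 0.17 for Pdgfb, -0.46 to 0.31 for Kcne3 and -0.12 to 0.20 for Mcam. Leaving out a pair with the block gave -0.03 to 0.0130 for Apln, -0.18 to 0.32 for Aplnr (0.132 without pair 3) and -0.12 to 0.0202 for Kcne3. The cause was not tested.

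Over all genes, 0 were higher and 1 lower in the group comparison, 12 and 7 with DESeq2, and 0 lower with limma-voom. With the replicate block the counts were 613 and 511, with DESeq2 262 and 111, with limma-voom 586 and 507, with library size alone 471 and 734 and with RLE scaling 625 and 521. Leaving out a library gave 0 to 1 lower, and leaving out a pair with the block 603, 339 and 560 higher and 527, 205 and 600 lower without pair 1, 2 and 3.

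Tip cell list genes higher and lower, 0 and 0 in the group comparison, were 5 and 4 with the replicate block, 3 and 2 with DESeq2, 5 and 5 with limma-voom, 2 and 4 with library size alone and 5 and 4 with RLE scaling; leaving out a pair gave 0 to 6 and 2 to 7. Stalk cell list genes were 1 and 3, 0 and 3, 1 and 3, 0 and 3, and 2 and 3 under the same 5 settings, and 0 to 1 and 2 to 3 without a pair. Partner list genes were 4 and 2, 1 and 0, 6 and 2, 3 and 2, and 4 and 2, and 1 to 5 and 0 to 3 without a pair. Of the 19 listed genes that passed with the block, 9 passed with DESeq2, 14 with library size alone, and 13, 4 and 16 without pair 1, 2 and 3. Leaving out 1 library without the block turned Prcp (-0.0514 to 0.351), Aqp1 (-1.24 to 0.0746), Wnt5a (-1.44 to 0.55) and Pdgfrb (-1.71 to 0.95), none of which passed there. The number of members that differed between replicate numbers was 6 with each scaling and 1 to 6 with a number left out.

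The fewest reads among the members were those of Aplnr and Kcne3, at 70 to 646 and 234 to 514 reads per library; for Aplnr the difference between library 2 and the others exceeded its counting intervals.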
